A study of Mus musculus with 12 samples.

Results

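The MYC, MAX and MXD network is a group of basic helix-loop-helix leucine zipper transcription factors, and its transcripts were followed in mouse embryonic stem (ES) cells with reduced Tet1 or Tet2. The 10 genes (Myc, Mycn, Mycl, Max, Mnt, Mxd1, Mxd3, Mxd4, Mxi1 and Mlx) were chosen by symbol, with a rule that uses no measured value. All 10 were found among the 36521 gene rows of the deposited tables, and all 10 passed a filter on low values (a parental mean of at least 10 normalized counts). RNA sequencing had been carried out on 12 samples of the ES cell line V6.5, 4 in each of 3 groups. The parental group had no knockdown. The Tet1kd group stably carried a pSUPER-puro short hairpin vector against Tet1, and the Tet2kd group one against Tet2. Knockdown cells had been grown as picked clones after puromycin selection on inactivated SNL76/7-4 feeder cells, and all groups were cultured with serum and LIF. The sources used here do not give the number of clones behind the 4 libraries of a knockdown, and no group carried a control hairpin, so effects of the knockdown and of the vector, of puromycin or of clonal origin cannot be told apart. The labels call the samples of a group biological replicates.

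MAX is the shared partner of this network. MYC, MYCN and MYCL bind DNA as pairs with MAX at E-boxes, of which CACGTG is the best bound, and recruit histone acetyltransferases to activate growth genes. MNT and the MXD proteins (MXD1, MXD3, MXD4 and MXI1, also called MXD2) pair with MAX at the same sites and recruit the SIN3 corepressor, while MLX pairs with the MONDO proteins and with some of the MXD proteins. In ES cells MYC and MYCN are known for sustaining self-renewal and proliferation, and MAX also pairs with MGA in a Polycomb complex that silences germline genes.

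The network genes themselves can carry the site that the network binds. RefSeq promoters of the assembly GRCm38.p6, from 250 bases before to 50 bases after each annotated start, were listed for 9 members (not Myc), and 4 of the 9 held CACGTG. The motif reads the same on both strands. It was found in 7.15% of the 32851 promoters of the table and in 8.09% of its 27025 genes. The windows are shown because they place the E-box of each gene; the capitals mark the CACGTG, with 12 bases on either side, written 5′ to 3′ along the gene.
Max: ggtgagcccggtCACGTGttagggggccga
Mnt: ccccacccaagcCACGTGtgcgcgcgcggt
Mxd4: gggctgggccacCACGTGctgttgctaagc
Mlx: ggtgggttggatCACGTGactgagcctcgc
The Max window lies at chr12:76962234-76962263 on the minus strand, with the first base of the motif 3 bases before the start. That of Mnt lies at chr11:74830789-74830818 on the plus strand, 123 bases before the start. The Mxd4 window is chr5:34187912-34187941 on the minus strand, 219 bases before the start, and the Mlx window is chr11:101087238-101087267 on the plus strand, 40 bases before the start. The listed promoters of Mycn, Mycl, Mxd1, Mxd3 and Mxi1 (3 promoters) held no CACGTG in this window, which says nothing of the factors' binding. A match is a description of the letters, and binding was not measured.

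Libraries held between 14.6 and 31.6 M recovered reads in the parental group, and an estimated 15.9 to 39.7 M in Tet1kd and 14.4 to 31.1 M in Tet2kd. The targeted genes checked the labels. Tet1 had 25090.1 to 29709 normalized counts in the parental libraries and 6215 to 7540.3 in Tet1kd, 25.2% of the parental mean, and Tet2 had 8172 to 8949 and, in Tet2kd, 4155 to 4625, 50.9% of the parental mean. ES cell markers were present in every group, and of 13 tested 6 were higher and 2 lower in Tet1kd and 1 higher in Tet2kd. Of 20 feeder fibroblast markers tested, 16 were lower and 2 higher in Tet1kd, and 3 were lower and 4 higher in Tet2kd. Over all genes tested, 15.3% were lower and 15.2% higher in Tet1kd, and 3.29% lower and 3.85% higher in Tet2kd. Among genes with a parental mean of at least 100, which all 13 ES cell markers reached, 49.3% changed in Tet1kd and 12.5% in Tet2kd. The feeder markers did not move one way in Tet2kd, with a median log2 fold change of -0.06 and 11 of 20 below 0. Their summed normalized counts were 9295 to 10455 in the parental libraries, 6718 to 7773 in Tet1kd and 11149 to 12423 in Tet2kd, and none of the 20 was at 0 in all libraries of a group. Dcn, a stromal proteoglycan, fell by 4.98 on the log2 scale in Tet1kd (adjusted p = 1.4e-89 in the authors' deposited table). The part of feeder RNA in the members' values was not tested. In bulk RNA, fewer cells of a type and less RNA per cell cannot be told apart.

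In Tet1kd cells the network lost most of its Myc and Mxd1 transcript and a smaller part of Mnt and Mlx, while Mycl and Mxi1 rose. Of 10 members 6 were past an adjusted p of 0.05 in the table the authors deposited, 2 higher and 4 lower, against 30.4% of the 23120 genes tested (15.2% higher and 15.3% lower). Among genes with a parental mean of at least 100, which all members reached, 49.3% were past it, so the count is near that of genes as well expressed. In Tet2kd cells the changes were small: Mycn, Mycl and Mxd3 rose, and Myc and Max fell. These 5 of 10 stand against 7.14% of the 22949 genes tested (3.85% higher and 3.29% lower) and 12.5% of genes with a parental mean of at least 100. The authors' second deposited test called 6 members in Tet1kd and 7 in Tet2kd, against 39.2% and 18.2% of genes, and limma on the recovered libraries called 7 and 5, against 51.3% and 14.3%. The median log2 fold change of the members was -0.14 in Tet1kd and -0.05 in Tet2kd, beside -0.02 and 0.00 over all genes with a parental mean of at least 10. Both comparisons use the same 4 parental libraries, so their values are given side by side and not set against each other. Values per library below are normalized counts (reads divided by a size factor, on one scale for the 12 libraries), recovered from the deposited group means. Libraries are lettered a to d from deepest to shallowest, since nothing ties them to the numbered samples.

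**Figure D1:**
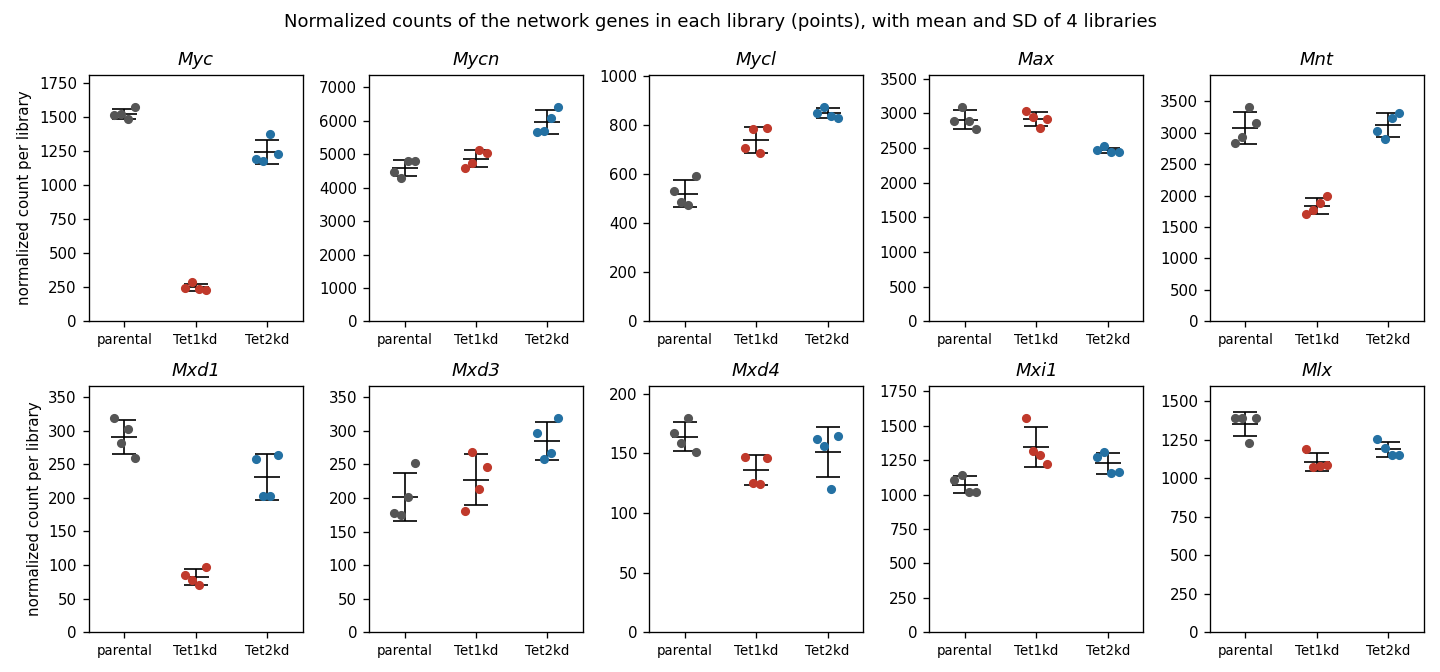
Normalized count of each of the 10 network genes (vertical axes from 0, one panel per gene) in the 4 libraries of parental, Tet1kd and Tet2kd cells (points, a to d from left to right), with the mean and SD as bars. Myc and Mxd1 in Tet1kd lie far under their parental libraries, and Mycl lies above them in both knockdowns.

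Myc (ENSMUSG00000022346, chromosome 15), the founding activator of the family, had 1517, 1519, 1482 and 1573 normalized counts in the parental libraries. In Tet1kd it had 247, 285, 237 and 228, and in Tet2kd 1194, 1179, 1374 and 1228. The 3 groups did not overlap, and the highest Tet1kd library lay far below the lowest of the other groups. The mean fell from 1523 ± 37.8 to 249 ± 25 in Tet1kd (SD, n = 4 each), so that 16.4% of the parental mean remained. This was a log2 fold change of -2.61 (adjusted p = 7.98e-124 in the authors' deposited table), and limma on the recovered libraries gave -2.61 ± 0.08 (SE, adjusted p = 1.65e-06). In Tet2kd the mean was 1244 ± 89.3 (SD, n = 4), 81.7% of parental. This log2 fold change of -0.29 passed the deposited test (adjusted p = 0.014), and limma gave -0.29 ± 0.06 (SE, adjusted p = 0.0239). That smaller call was lost when most single libraries were left out: limma's adjusted p was 0.0551 to 0.0665 without parental library a, b or d or without Tet2kd library a, b or d.

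Mycn (ENSMUSG00000037169, chromosome 12), the family member prominent in early embryonic and neural progenitors, had 4473, 4286, 4798 and 4799 normalized counts in the parental libraries. It had 4576, 4749, 5123 and 5044 in Tet1kd, which overlap the parental values, and 5678, 5693, 6077 and 6417 in Tet2kd, which all lie above them. It changed by 0.09 in Tet1kd on the log2 scale (adjusted p = 0.545) and by 0.38 in Tet2kd (adjusted p = 0.000158) in the authors' deposited tables. The Tet2kd mean of 5966 ± 353 (SD, n = 4) was 1.3 times the parental 4589 ± 253 (SD, n = 4). The knockdown libraries of Mycn, and the Tet2kd libraries of Mnt, were recovered under a narrower limit around the group mean, so their SDs lean towards small values.

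Mycl (ENSMUSG00000028654, chromosome 4), the third activator of the family, had 530.3, 486, 473 and 591 normalized counts in the parental libraries. All Tet1kd libraries (704, 782, 685 and 786) and all Tet2kd libraries (849, 873, 836 and 828) lay above these. Mycl rose by 0.51 in Tet1kd on the log2 scale (adjusted p = 1.4e-05) and by 0.70 in Tet2kd (adjusted p = 1.03e-09) in the authors' deposited tables. Limma gave 0.51 ± 0.09 and 0.71 ± 0.08 (SE, adjusted p = 0.00219 and 0.00251), and both calls held without any single library. Mycl was the member that rose in both knockdowns by the deposited test.

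Per kilobase of exon (GENCODE M21 exon lengths), Mycn was the main MYC family transcript in every library, and the loss of Myc in Tet1kd changed the makeup of the family. Myc made up 26.9% ± 1.06 of the summed family level in the parental libraries, 5.24% ± 0.64 in Tet1kd and 18.5% ± 1.00 in Tet2kd (SD, n = 4 each). The share of Mycn was 66.9% ± 1.31, 84.3% ± 1.24 and 73.0% ± 1.18, and that of Mycl 6.18% ± 0.51, 10.5% ± 0.76 and 8.48% ± 0.59 (SD, n = 4 each). The level of Mycn per kb was 2.49 ± 0.15 times that of Myc in parental cells, 16.3 ± 2.14 times in Tet1kd and 3.96 ± 0.27 times in Tet2kd (SD, n = 4 each). The summed level of the family was 1980.4 to 2182 normalized counts per kb in the parental libraries. It was 1654 to 1812 in Tet1kd, below every parental library, and 2373 to 2604 in Tet2kd, above every one. These sums describe the family and carry no test, and a share moves whenever another gene of the family does.

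**Figure D2:**
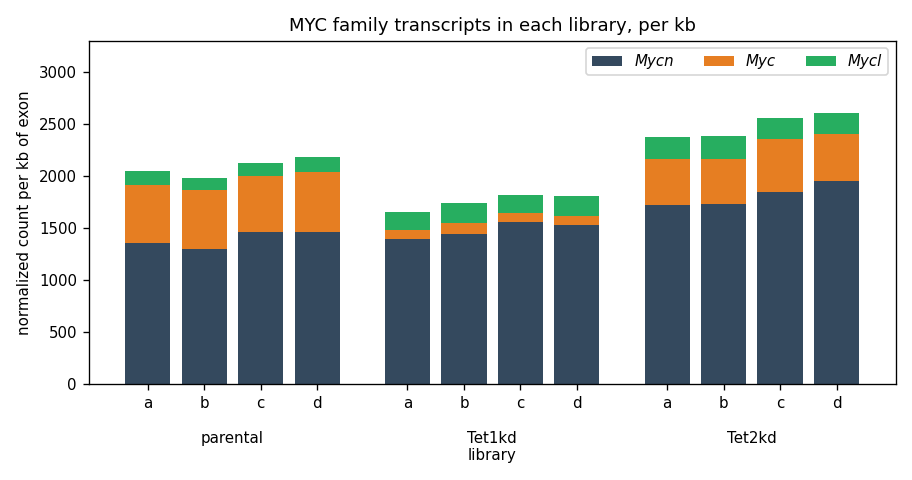
Stacked normalized counts per kb of exon (vertical axis, from 0) of Mycn, Myc and Mycl in each of the 12 libraries (horizontal axis, libraries a to d by group). The Myc part shrinks to a thin band in Tet1kd, where the sum is 1654 to 1812 per kb, against 1980.4 to 2182 in parental cells and 2373 to 2604 in Tet2kd.

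Max (ENSMUSG00000059436, chromosome 12), the obligate partner, had 2891, 3092, 2883 and 2768 normalized counts in the parental libraries and 3032, 2945, 2782 and 2915 in Tet1kd. These overlap, with a log2 fold change of 0.01 ± 0.06 (SE, limma, adjusted p = 0.943). In Tet2kd it had 2468, 2522, 2442 and 2441, all below the parental libraries. It fell there by 0.24 on the log2 scale, with an adjusted p of 0.0496 in the authors' deposited table, at the edge of the threshold. Limma gave an adjusted p of 0.0264, and 0.0579 to 0.068 without parental library a, b or c or without Tet2kd library a, c or d.

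Mlx (ENSMUSG00000017801, chromosome 11), the partner of the MONDO proteins, had 1392, 1392, 1231 and 1391 normalized counts in the parental libraries and 1189, 1073, 1076 and 1083 in Tet1kd. The groups did not overlap, though the lowest parental and the highest Tet1kd library came close. Mlx fell by 0.29 in Tet1kd on the log2 scale (adjusted p = 0.011 in the authors' deposited table). In Tet2kd, with 1255, 1196, 1153 and 1152, it was -0.18 (adjusted p = 0.286), and the authors' second deposited test called it (adjusted p = 0.0112). Exons of Mlx and of Psmc3ip, on the opposite strand, share 385 bases in GENCODE M21. The counting is not stated to use strand, so reads of that stretch could come from either gene.

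Mnt (ENSMUSG00000000282, chromosome 11), the broadly expressed MAX-binding repressor and main antagonist of MYC, had 2834, 2926, 3411 and 3149.7 normalized counts in the parental libraries. All Tet1kd libraries (1709.8, 1767, 1878 and 1994) were lower, while the Tet2kd libraries (3029.9, 2901, 3241 and 3308) overlapped the parental ones. In Tet1kd 59.6% of the parental mean remained, a log2 fold change of -0.75 (adjusted p = 4.13e-15 in the authors' deposited table). In Tet2kd the log2 fold change was 0.02 ± 0.08 (SE, limma, adjusted p = 0.887). Mnt and Myc both fell in Tet1kd, by unequal amounts. Per kb, Mnt was 1.10 to 1.35 times Myc in the parental libraries, 3.65 to 5.14 times in Tet1kd and 1.38 to 1.58 times in Tet2kd.

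Mxd1 (ENSMUSG00000001156, chromosome 6), a repressor best known from cells that stop dividing and differentiate, had 319, 281, 302 and 259 normalized counts in the parental libraries. It had 84.4, 76.9, 69.7 and 96.6 in Tet1kd, all far below, and 258, 203, 202 and 263 in Tet2kd, which reach the parental range. In Tet1kd 28.2% of the parental mean remained, with a log2 fold change of -1.83 (adjusted p = 6.22e-29 in the authors' deposited table). In Tet2kd the value was -0.33 (adjusted p = 0.126). The genes around Mxd1 were lower too: of 102 genes with a parental mean of at least 10 that start within 5 Mb, 69 were lower and 2 higher in Tet1kd, with a median log2 fold change of -0.89 and quartiles of -1.15 and -0.43. In Tet2kd the same stretch had a median of 0.04, with none lower. Tet3 lies in the same stretch and rose by 0.83 in Tet1kd (adjusted p = 6.45e-09 in the authors' deposited table). Low medians in Tet1kd were not limited to this stretch of chromosome 6. Genes within 5 Mb of Cbx3, Gadd45a, Polr1a and Rbsn, on the same chromosome, had medians of -0.88, -0.94, -0.78 and -0.87. Those around Rybp, also on chromosome 6, had -0.17. The part of the regional shift in the fall of Mxd1 was not tested.

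Mxd3 (ENSMUSG00000021485, chromosome 13), the MXD repressor found in dividing cells, had 178, 174, 201 and 252 normalized counts in the parental libraries. The Tet1kd libraries (181, 268, 214 and 246) overlapped these, and the Tet2kd libraries (297, 258, 267 and 319.6) lay just above them. Against parental the log2 value was 0.18 in Tet1kd (adjusted p = 0.505) and 0.50 in Tet2kd (adjusted p = 0.00236) in the authors' deposited tables. Limma gave 0.51 ± 0.13 in Tet2kd (SE, adjusted p = 0.0401). Without parental library a, b or c, or without any 1 Tet2kd library, that p was 0.0563 to 0.0973, and it was 0.0187 without parental library d. Here too the surroundings moved, in the other knockdown. In Tet2kd the 77 genes within 5 Mb had a median log2 fold change of 0.14, with 26 higher and none lower, and all 26 started between 0.87 Mb before and 0.40 Mb after the start of Mxd3. Of the 35 neighbours in that interval 26 were higher, with a median log2 fold change of 0.57 beside the 0.50 of Mxd3, and the other 42 genes had a median of -0.04. The interval was drawn around the genes that rose, after their values were seen, and its part in the rise of Mxd3 was not tested. In Tet1kd the 78 genes within 5 Mb had a median of 0.18. Exons of Mxd3 and Prelid1 share 105 bases on opposite strands, and Prelid1 was not called in Tet2kd.

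**Figure D3:**
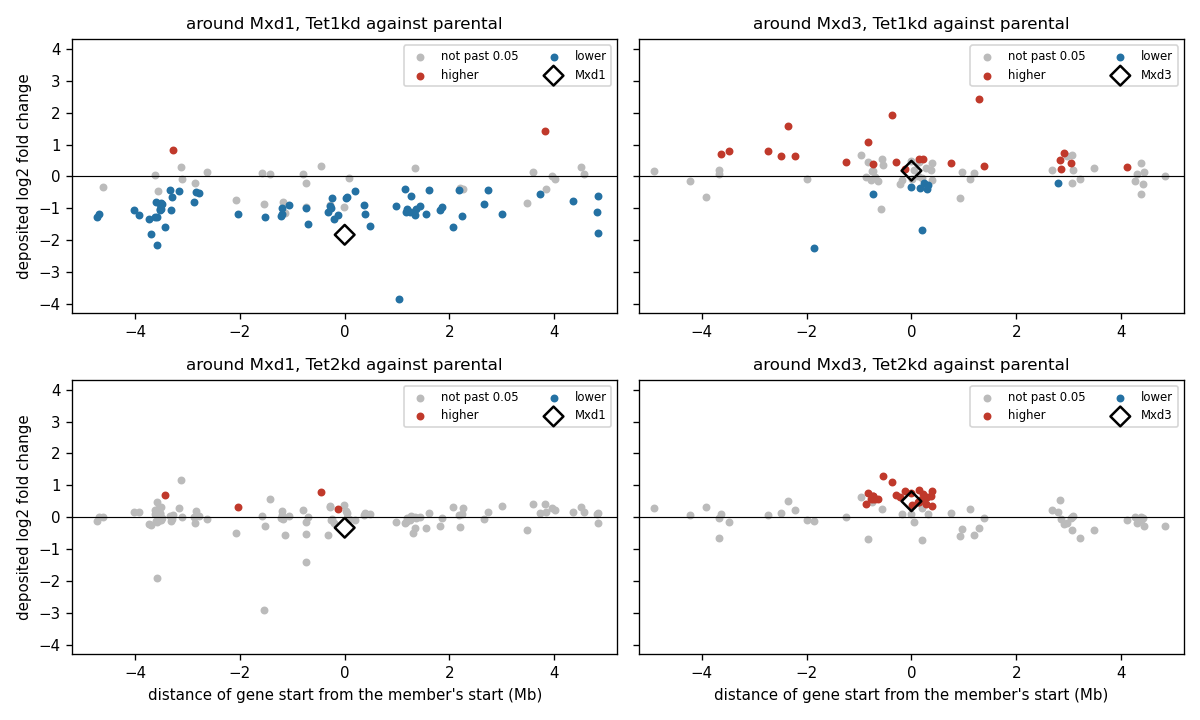
Deposited log2 fold change (vertical axes) of genes with a parental mean of at least 10, by the distance of their start from that of Mxd1 (left) or Mxd3 (right) in Mb, in Tet1kd (top) and Tet2kd (bottom); colours mark genes past an adjusted p of 0.05 and the diamond marks the member. Around Mxd1 69 of 102 genes are lower and 2 higher in Tet1kd, and around Mxd3 a cluster of 26 genes within 0.87 Mb is high in Tet2kd.

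Mxi1 (ENSMUSG00000025025, chromosome 19), also known as MXD2, had 1106, 1139, 1018 and 1019 normalized counts in the parental libraries. The Tet1kd libraries (1558, 1316, 1287 and 1219.6) and the Tet2kd libraries (1275, 1307, 1156 and 1166) all lay above them, those of Tet2kd by a narrow margin. On the log2 scale the change was 0.33 in Tet1kd (adjusted p = 0.00249) and 0.20 in Tet2kd (adjusted p = 0.227) in the authors' deposited tables, whose second test called the latter (adjusted p = 0.00892). Exons of Mxi1 share 194 bases with the opposite-strand gene Gm10197.

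Mxd4 (ENSMUSG00000037235, chromosome 5), another SIN3-recruiting repressor, had 167, 159, 179.9 and 151 normalized counts in the parental libraries, 147, 125, 124 and 146 in Tet1kd and 162, 156, 120.1 and 165 in Tet2kd. The Tet1kd libraries lay just under the parental ones and the Tet2kd libraries overlapped them. The log2 fold change of -0.28 in Tet1kd was not past the deposited test (adjusted p = 0.266), while limma called it (adjusted p = 0.0298). That limma call was lost without parental library a, b or c or without Tet1kd library b or c (adjusted p = 0.0517 to 0.0762). In Tet2kd the log2 fold change was -0.12 (adjusted p = 0.935).

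The medians around the other members lay between -0.08 and 0.18. The genes within 5 Mb of Myc had a median log2 fold change of 0.09 in Tet1kd (25 genes, 4 higher and 4 lower), beside -2.61 for Myc. Those around Mnt had -0.01 (167 genes), those around Mycl -0.02 (111 genes), those around Mlx -0.03 (197 genes), those around Mxd4 -0.04 (105 genes), those around Mycn 0.12 (34 genes), those around Max 0.16 (65 genes) and those around Mxi1 0.18 (29 genes). In Tet2kd the medians around Mycn, Mycl, Myc and Max were -0.08, 0.00, -0.05 and 0.04.

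Library by library, 7 of 10 members had Tet1kd libraries that did not overlap the parental ones, against 48.8% of 14640 genes with a mean of at least 10. In Tet2kd there were 6 of 10, against 23.0% of 14521 genes. The 4 libraries of each group form a deeper pair (a and b) and a shallower pair (c and d), a split taken from the values and not from the labels. The deviations of 10373 genes from their group means correlated at 0.401 to 0.597 between libraries of the same depth class in different groups and at -0.554 to -0.392 across classes. Within the deeper pairs alone Myc differed by -2.51 in Tet1kd and within the shallower pairs alone by -2.71. The corresponding values were -0.73 and -0.76 for Mnt, -1.89 and -1.76 for Mxd1, 0.55 and 0.47 for Mycl, 0.35 and 0.30 for Mxi1 and -0.30 and -0.28 for Mlx. In Tet2kd they were 0.38 and 0.38 for Mycn, 0.76 and 0.65 for Mycl, 0.65 and 0.38 for Mxd3, -0.36 and -0.23 for Myc and -0.26 and -0.21 for Max. The libraries of each of these called changes did not overlap the parental ones. The same direction within both classes was therefore fixed in advance, and the values show only the sizes.

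The knockdowns were then compared with each other, with limma on the 12 recovered libraries. Of 10 members 5 differed at an adjusted p of 0.05, against 48.6% of the 14453 genes tested, a share near that of the members. Myc was lower in Tet1kd than in Tet2kd, with mean log2 levels of 7.96 and 10.28 and a difference (Tet1kd minus Tet2kd) of -2.32 ± 0.08 (SE, adjusted p = 8.59e-09). The same difference was -1.49 ± 0.12 (SE, adjusted p = 3.81e-06) for Mxd1, -0.76 ± 0.08 (SE, adjusted p = 1.37e-05) for Mnt and -0.29 ± 0.06 (SE, adjusted p = 0.00307) for Mycn. Max was the called member that was higher in Tet1kd, by 0.24 ± 0.05 (SE, adjusted p = 0.00197). Mycl, which rose in both, had a difference of -0.20 with a 95% interval of -0.37 to -0.02 (adjusted p = 0.0546). Its p passed without parental library c or d or Tet1kd library d (0.0485, 0.0275 and 0.0483). Mxd3 had -0.34 (interval -0.67 to -0.01, adjusted p = 0.0757, and 0.0456 or 0.0411 without parental library d or Tet1kd library b). Mxd4 had -0.15 (interval -0.39 to 0.10, adjusted p = 0.299, and 0.0367 without Tet2kd library c). Mxi1 had 0.13 (interval -0.06 to 0.31) and Mlx -0.11 (interval -0.24 to 0.03). The intervals of Mycl and Mxd3, which are not adjusted for the number of genes, exclude 0. No margin for equal levels was set, so no interval here shows equal levels.

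**Figure D4:**
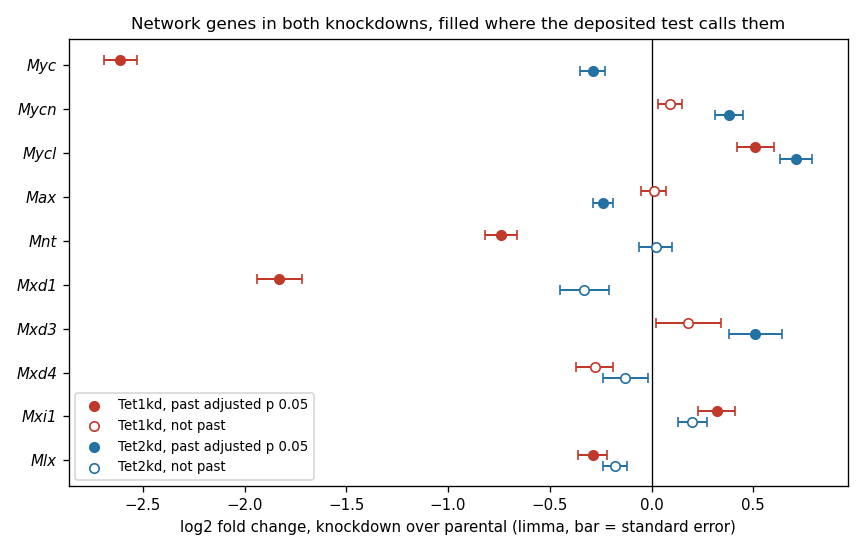
Log2 fold change of each network gene against parental (horizontal axis, limma on recovered libraries, bars are standard errors, n = 4 libraries per group) in Tet1kd and Tet2kd; filled points are past an adjusted p of 0.05 in the authors' deposited tables. Myc (-2.61) and Mxd1 (-1.83) in Tet1kd stand far to the left of all other points, which lie between -0.74 and 0.71.

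Levels can be ordered per kilobase, with exon lengths of GENCODE M21 that join all annotated isoforms and so understate a gene whose long isoform is unused. In parental cells the order was Mycn (1393 ± 76.9 normalized counts per kb), Max (808 ± 37.4), Mlx (676 ± 40.2), Mnt (666 ± 55.6), Myc (560.5 ± 13.9), Mxi1 (157 ± 9), Mycl (129 ± 13.2), Mxd3 (84.9 ± 15.1), Mxd1 (41.0 ± 3.64) and Mxd4 (19.4 ± 1.44; SD, n = 4 each). Only Mlx and Mnt overlapped among the neighbours in this order. In Tet1kd Myc moved from the fifth to the eighth place, at 91.7 ± 9.19 per kb, where it overlapped Mxd3 (95.9 ± 16; SD, n = 4 each). Mxi1 (197 ± 21.6) overlapped Mycl (183 ± 13), and Mxd1 (11.6 ± 1.62) came last, under Mxd4 (16 ± 1.5; SD, n = 4 each). In Tet2kd Max (686 ± 10.6) overlapped Mnt (674 ± 40.6), and Mnt overlapped Mlx (595 ± 24.3; SD, n = 4 each), while Mycl (209.6 ± 4.93) stood above Mxi1 (179.7 ± 11.2).

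The 5 repressors (Mnt, Mxd1, Mxd3, Mxd4 and Mxi1) summed to 914 to 1035 normalized counts per kb in the parental libraries. The sum was 704 to 744 in Tet1kd, below every parental library, and 975 to 1077 in Tet2kd. Without Mnt, the 4 MXD genes summed to 298 to 310.1 in the parental libraries, 304 to 334 in Tet1kd and 325 to 368 in Tet2kd. The MXD sum of Tet1kd overlapped that of the parental libraries, while Mnt alone went from 666 ± 55.6 to 397 ± 27.1 per kb (SD, n = 4 each).

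At an adjusted p of 0.05, exon bins of the members differed in use about as often as the bins of all genes. An exon bin is a stretch of a gene counted separately, and the deposited exon tables tested 84 of 102 bins of the members in Tet1kd and 85 in Tet2kd. In each comparison 2 bins were past an adjusted p of 0.05, beside 2.56% of the 195843 bins tested in Tet1kd and 2.45% of 193091 in Tet2kd. At an unadjusted p under 0.05 there were 16 of 84 and 7 of 85. The share over all bins is not given here, so these counts are not read as high or low. Of the 16 in Tet1kd, 5 were of Mxd3 (14 tested) and 5 of Mlx (15 tested). In Tet1kd both bins past the adjusted p were bins of Mlx. Bin 15 of 19 had a deposited log2 ratio of -0.19 (knockdown over parental, adjusted p = 0.0221) and bin 19 one of 0.14 (adjusted p = 0.00958). In Tet2kd bin 15 of Mlx had -0.22 (adjusted p = 0.00511), and bin 19 had 0.11 (adjusted p = 0.0604). The other called bin in Tet2kd was bin 9 of Mxd3 (-2.43, adjusted p = 0.0164), with a mean of only 2.67 normalized counts. Mlx and Mxd3 share exon bases with Psmc3ip and Prelid1 on the opposite strand. The bins carry no coordinates, so whether the called bins hold reads of those genes was not tested. No bin of Myc (11 tested), Mycn (6), Max (7) or Mnt (10) was called in either comparison of the deposited DEXSeq tests, and at an unadjusted p under 0.05 each of these genes had at most 1 bin in a comparison. The ratio is signed here opposite to its header, which gives parental over knockdown. Parental bin shares computed from the 2 exon tables matched best when it was doubled (median difference 0.024 on the log2 scale over 45 bins, against 0.154 as deposited), so its size may be understated.

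Genes that work with the network were followed through lists. Of 3 further network genes, Mga, which pairs with MAX, and Mlxip (MondoA) had log2 fold changes between -0.11 and 0.09 that were not past the test in either knockdown. Mlxipl (ChREBP), the glucose-sensing partner of MLX, fell by 0.85 in Tet1kd (adjusted p = 0.00022) and rose by 0.52 in Tet2kd (adjusted p = 0.0346) in the authors' deposited tables. The 3 MLX and MONDO target genes all fell in Tet1kd, where 15.3% of all genes tested were lower. They were Txnip, an inhibitor of glucose uptake (-0.67, adjusted p = 9.76e-15), its relative Arrdc4 (-0.21, adjusted p = 0.046) and pyruvate kinase Pklr (-1.64, adjusted p = 4.47e-05). In Tet2kd none of the 3 was past the deposited test (0.16, -0.06 and -0.14), with 1 at an unadjusted p under 0.05, 1 called by the authors' second test and 0 of 2 by limma. Over all genes the deposited test called 7.14% there, the second test 18.2% and limma 14.3%.

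More genes that MYC is known to activate were lower than higher in Tet1kd. Of 24 ribosome and nucleolar genes, 12 were lower and none higher, with a median log2 fold change of -0.32 and 22 of 24 below 0. The smallest adjusted p values belonged to Polr1a, the largest subunit of RNA polymerase I (-1.29, 3.58e-47), the ribosome assembly factor Nip7 (-0.75, 1.1e-15) and the nucleolar helicase Ddx21 (-0.60, 4.43e-12). Of 33 metabolism and growth genes, 15 were lower and 4 higher, with a median of -0.23. Hk2, a hexokinase (-1.22, 3.33e-45), the cell cycle phosphatase Cdc25a (-0.78, 1.11e-18) and the transferrin receptor Tfrc (-0.99, 7.56e-15) led this list. These shares stand against 15.3% lower over all genes tested, and 25.4% lower and 23.9% higher among genes with a parental mean of at least 100, which all genes of both lists reached. Polr1a and Hk2 lie on chromosome 6 among genes with medians of -0.78 and -0.89, and without genes in such surroundings (a median of -0.5 or less) 11 and 14 of the lower genes were left. In Tet2kd 2 ribosome genes were lower (Nip7, -0.39, adjusted p = 0.000155, and nucleolin Ncl, -0.29, adjusted p = 0.00602) and 1 higher. The higher one, the nucleolar gene Nop16 (0.58, adjusted p = 1.55e-06), lies in the raised stretch around Mxd3. Of the metabolism and growth genes 2 were lower in Tet2kd, the cell cycle factor E2f2 (-0.56, adjusted p = 0.000379) and the chaperonin gene Hspe1 (-0.34, adjusted p = 0.0395). Of genes with a parental mean of at least 100, 12.5% were past the deposited test in Tet2kd, so its counts for both lists are near or below that share. The authors' second test called 14 of the 24 ribosome genes and 17 of the 33 metabolism and growth genes there, against 18.2% of all genes. Limma called 3 of 17 and 1 of 23, against 14.3%. The ribosome genes had a median of -0.13 in Tet2kd, with 20 of 24 below 0. The metabolism and growth genes had 0.03, with 15 of 33 below 0.

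Genes that MYC is known to repress did not move one way. Of 10, 3 were higher and 3 lower in Tet1kd, where 30.4% of all genes and 49.3% of those with a parental mean of at least 100 were past the test. The higher ones included Ndrg1 (1.25, adjusted p = 7.69e-07) and Ndrg2 (0.74, adjusted p = 3.6e-14), named as N-Myc downstream regulated genes. The lower ones included the stress gene Gadd45a (-0.75, adjusted p = 5.08e-06), which lies on chromosome 6 among genes with a median of -0.94. Pdgfrb is on this list and on the feeder fibroblast list, and was lower too (-0.65, adjusted p = 0.00896). In Tet2kd Thbs1, an inhibitor of vessel growth, was higher (0.40, adjusted p = 3.59e-05) and Ndrg1 lower (-0.36, adjusted p = 0.00523). There 7.14% of all genes were past the test, and 12.5% of those with a parental mean of at least 100.

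Cofactor lists are read against the 49.3% of genes with a parental mean of at least 100 that were past the test in Tet1kd (25.4% lower and 23.9% higher), since all their genes reached that mean. In Tet2kd the same share was 12.5%. Of 15 SIN3 corepressor genes 6 were lower and none higher, led by the chromatin reader Ing1 (-0.79, adjusted p = 1.01e-15), Sap30 (-0.52, adjusted p = 3.65e-07) and Arid4b (-0.41, adjusted p = 4.11e-05), both SIN3 subunits. In Tet2kd Arid4b (-0.34, adjusted p = 0.00335) and Arid4a (-0.33, adjusted p = 0.00818) were lower. None of 16 MYC coactivator genes was past the deposited test in Tet2kd, with 2 at an unadjusted p under 0.05. The authors' second test called 5 there, against 18.2% of all genes, and limma 0 of 13. In Tet1kd 5 of the 16 were lower and 2 higher. Ruvbl1, a helicase subunit of acetyltransferase complexes (-1.06, adjusted p = 3.96e-13), lies within 5 Mb of Mxd1. Hcfc1, a cofactor that MYC binds, was lower (-0.39, adjusted p = 1.62e-05) and Dmap1 higher (0.46, adjusted p = 3.53e-05). Of 16 genes of MYC protein turnover 7 were lower and 4 higher in Tet1kd. They included the deubiquitinase Usp36 (-0.55, adjusted p = 3.33e-09), the phosphatase subunit Ppp2r5a (0.59, adjusted p = 1.71e-08) and Cip2a, which shields MYC from that phosphatase (-0.44, adjusted p = 3.54e-06). In Tet2kd 3 were lower and 1 higher, with Aurka, a kinase that stabilizes N-MYC, at -0.44 (adjusted p = 5.8e-06), the deubiquitinase Usp28 at 0.40 (adjusted p = 6.02e-05) and the phosphatase inhibitor Set at -0.30 (adjusted p = 0.00182).

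The MGA and MAX arm is a Polycomb complex (PRC1.6). Of its 13 genes 5 were lower and 2 higher in Tet1kd, a share near the 49.3% past the test among genes with a parental mean of at least 100. Tfdp2, the partner of E2F6, was higher (0.63, adjusted p = 2.52e-11), and Rybp, a Polycomb subunit, lower (-0.72, adjusted p = 5.29e-08). Cbx3 was lower as well (-1.34, adjusted p = 4.35e-11) and lies on chromosome 6 among genes with a median of -0.88. None of the 13 was past the deposited test in Tet2kd, with 4 at an unadjusted p under 0.05, 3 called by the authors' second test and 0 of 12 by limma. Among genes with a parental mean of at least 100, 12.5% were past the deposited test there. Of 15 germline genes that the complex silences, 4 were higher and 5 lower in Tet1kd, where 30.4% of all genes were past the test. The meiotic cohesin gene Stag3 (0.54, adjusted p = 3.69e-09) and Dazl, for a germ cell RNA-binding protein (0.99, adjusted p = 4.08e-09), were higher, and Tex101, for a germ cell surface protein, fell from 17.7 to 1.53 normalized counts (-3.53, adjusted p = 1.42e-05). In Tet2kd 4 were higher and none lower, among them the piRNA factor Mov10l1 (0.53, adjusted p = 0.000293), Stk31 (0.50, adjusted p = 0.00241) and the meiotic cohesin Smc1b (0.71, adjusted p = 0.00256). That share stands against 3.85% higher over all genes tested.

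Of 12 regulators of Myc transcription and RNA, 4 were higher and 4 lower in Tet1kd, beside 23.9% higher and 25.4% lower among genes with a parental mean of at least 100, which all 12 reached. In Tet2kd 4 were higher and none lower, beside 3.85% higher over all genes tested. Of genes with a parental mean of at least 100, 12.5% were past the test there in either direction. Lef1, a nuclear partner of beta-catenin, rose in both (1.39, adjusted p = 3.74e-32, and 0.77, adjusted p = 8.9e-09). Cnbp, which binds a Myc promoter element, fell in Tet1kd (-1.01, adjusted p = 3.71e-32) and lies within 5 Mb of Mxd1. Fubp1, which binds the far upstream element of Myc, fell as well (-0.67, adjusted p = 6.18e-14). In Tet2kd Tcf7l1, a repressor of Wnt targets (0.44, adjusted p = 2.18e-05), and the LIF receptor gene Lifr (0.29, adjusted p = 0.0085) were higher.

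**Figure D5:**
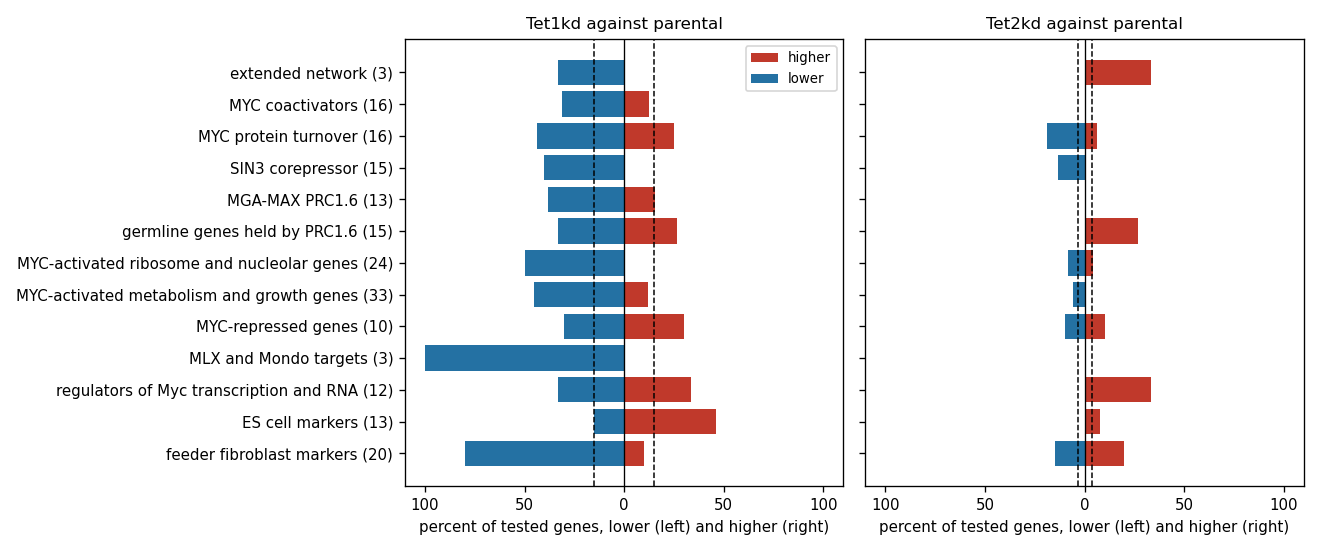
Percent of the tested genes of each list (number tested in brackets) that were lower (bars to the left) or higher (bars to the right) at an adjusted p of 0.05 in the authors' deposited tables, in Tet1kd (left panel) and Tet2kd (right panel); dashed lines give the same percent over all genes tested. In Tet1kd 12 of 24 ribosome and nucleolar genes and 15 of 33 metabolism and growth genes were lower, beside 16 of 20 feeder fibroblast markers.

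Promoters that hold CACGTG were set beside the rest, as a description. Among genes with a parental mean of at least 10 that the promoter table lists, 25.1% of the 1197 with CACGTG were lower in Tet1kd and 23.6% of the 8907 without it. The higher genes made up 21.1% and 23.9%. In Tet2kd 5.12% of 1192 and 5.13% of 8844 were lower. The motif was held by 12 of 30 metabolism and growth genes, 3 of 22 ribosome and nucleolar genes and none of 6 MYC-repressed genes with a listed promoter. It was held by 8.09% of all genes of the promoter table. Among the genes with a parental mean of at least 10 above, 1197 held it and 8907 did not. With only 6 MYC-repressed genes, their count is not read as a difference from the other lists.

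The 5 genes whose log2 levels followed Myc most closely over the 12 libraries, among 10373 genes with a mean of at least 100, were Ajuba (Pearson r = 0.9957), Atad2b (0.9950), Isy1 (0.9949), Rbsn (0.9949) and Mcm10 (0.9942). The 12 points share 3 groups and the depth classes, so r mainly reflects the group means and is given as a description. Ajuba, a LIM domain adaptor, had a log2 fold change of -1.20 in Tet1kd and -0.15 in Tet2kd. Mcm10, a replication factor, had -0.45 and -0.07. Isy1 and Rbsn lie on chromosome 6 among genes with medians of -0.88 and -0.87 in Tet1kd.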

How the data were processed

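Poly(A)-selected RNA of 12 samples (3 groups of 4) had been sequenced on SOLiD. Per the submitters' processing notes, the authors used TopHat2 (2.0.0), SAMtools (0.1.18) and DESeq, with builds mm9 and NCBIM37. The authors deposited, per the file headers, gene tables with a mean signal (normalized count) per group, a ratio (fold), a log2 value and a p-value with adjustment from each of 2 tests, and exon tables with a mean signal, a log2 ratio and a p-value per bin. The first deposited adjusted p at 0.05 was the test. The deposited tables hold group means, so whole reads per library were recovered from the digits of the means (21226 of 21658 Tet1kd, 20813 of 21368 Tet2kd and 22002 of 22004 parental genes with reads). Recovery from 1 parental table gave 42154 of 42156 answers equal to those from both tables and 2 different ones. Parental and Tet1kd libraries keep the scale of the Tet1kd table, and Tet2kd libraries were multiplied by 1.089. Limma (3.58.1, R 4.3.3) was fitted on log2 values (pseudocount 0.5; genes averaging 10 or more), also for the difference between knockdowns. It was tested on simulated data. In the simulated Tet1kd comparison of 14643 genes, 87 of 100 genes changed 2-fold were recovered, and 17 of 100 changed 1.3-fold. Intervals are 95% with 9 residual degrees of freedom. Alternatives were the second deposited test, pseudocount 5, no filter, median centring, a depth term, each library left out, a 1.5-fold minimum, a bin adjusted p of 0.01, a bin mean of 50 and a 2 Mb window. Gene lengths and neighbours came from GENCODE M21 (GRCm38), not the authors' build, and serve only for lengths and for which genes lie near each other. Named were all members, Tet1 to Tet3, up to 3 genes with the smallest adjusted p per list and comparison (parental mean of at least 10; lists of 3 in full) and the 5 genes most like Myc. Pdgfrb, Prelid1 and Gm10197 were added after their values were seen or for their overlap. The members and lists were chosen with earlier results of these data known. Of 206 list entries 193 had an ID in the tables; the others were not analysed here. P-values measure the spread between the samples that the labels call replicates.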

Additional observations from a re-analysis of the deposited data

Results flagged for a closer look

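In 2 of 30 groups of 4 libraries (10 members in 3 groups), 1 library stood far from the others, by Dixon's 95% criterion on the gap to the nearest library over the range of the group. Chance gives about 1 in 20. Both groups are of Mlx, with gaps of 0.996 and 0.915 of the range. In the parental group library c had 1231 normalized counts and the others 1391 to 1392, and in Tet1kd library a had 1189 and the others 1073 to 1083. Without parental library c or without Tet1kd library a the log2 fold change of Mlx in Tet1kd was -0.33 and -0.32 on the log2 scale in limma (adjusted p = 0.00483 and 0.00763).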

How the results depend on the processing

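No paired analysis was possible because the deposited columns and the recovered libraries carry no replicate number. No call reversed its direction under any alternative. That was largely fixed in advance, since the libraries of the called members did not overlap between the groups compared. The second deposited test and the 1.5-fold minimum also kept the same fold change. The calls of Myc, Mnt and Mxd1 in Tet1kd held under all 17. The count of members changed in Tet1kd (6) was 3 with a 1.5-fold minimum and 3 in limma with the shallower libraries only, and 6 to 7 with 1 library left out. The count in Tet2kd (5) was 1 with a 1.5-fold minimum, 2 in limma without a filter on low values, and 2 to 4 with 1 library left out. It was 7 in limma with the deeper and shallower libraries as a term, which added Mxi1 (adjusted p = 0.00821) and Mlx (0.0347). It was 0 in limma with the deeper libraries only or the shallower libraries only (6 and 3 members at an unadjusted p under 0.05), where limma called 0 of all genes as well; these fits had 2 libraries per group and were added after the data were seen. The count that differed between the knockdowns (5) was 5 to 7 with 1 library left out, 7 with the depth term, which added Mycl (0.0495) and Mxi1 (0.05), and 7 with median centring, which added Mycl (0.0263) and Mxd3 (0.0447). In Tet1kd the depth term gave 7, as limma did without it. Exon bins called (2 in each) were 1 and 1 at an adjusted p of 0.01, and 1 in Tet2kd with a bin mean of at least 50. With a 2 Mb window the median around Mxd1 in Tet1kd was -0.97, that around Mxd3 in Tet2kd 0.47 (0.14 with 5 Mb) and that around Myc in Tet1kd 0.79 (2 genes; 0.09 with 5 Mb). The cause of these changes was not tested. Exon lengths without the first and last bin were not run, since the exon tables give no coordinates. On simulated data most genes changed 1.3-fold were missed. Far fewer genes were changed there than were called here. The simulated spread was also set by 1 fixed value for all genes, and no correlation by depth class was built in. The simulated shares therefore do not carry over to these data. A small change that was not called is still not shown to be absent.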
